A study of Caenorhabditis elegans with 4 samples.

Results

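Chromosome III of Caenorhabditis elegans held 306 of the 1679 binding regions in the combined NHR-237 list, or 18.2% of it. The members were chosen by their chromosome alone, as every region of that list placed on III. NHR-237 belongs to the nuclear hormone receptors, transcription factors that bind DNA through a zinc finger domain and carry a ligand-binding domain. This family is greatly expanded in nematodes, and for most of its worm members no ligand is known. The autosomes of this worm have gene-dense central parts and more repetitive arms, which recombine more often.

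Regions were mapped by chromatin immunoprecipitation and sequencing (ChIP-seq), in which DNA crosslinked to a protein is precipitated and read, in embryos of strain OP228. All samples share 1 genotype, the unc119(ed3) mutation together with wgIs228, a transgene introduced by bombardment that holds nhr-237 joined to TY1, EGFP and FLAG tags and a copy of unc119. Worms were a mixed population of males and hermaphrodites grown at 20 °C and crosslinked with 2% formaldehyde, and the series has 2 ChIP samples and 2 input samples. No region list of an input sample or of a strain without the tag was analysed here, and the labels do not say whether the replicates came from separate cultures. The binding recorded is that of a transgenic fusion protein in whole embryos, so the cells in which it occurred cannot be told from the lists.

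The position, score and peak number of every region were set by the authors. A smaller peak number goes with a higher score in broad terms but not strictly. In the combined list the member with peak number 1146 scored 2.66 and that with 1249 scored 2.70. The highest score is shared by 66.9% of combined regions, so the score gives no order among these. Peak number is used below as the rank of a region within its own list, and stronger or weaker refers to it. Coordinates are those of WormBase WS220. On chromosome III the replicate 1 list held 1384 regions and the replicate 2 list 2089. These covered 612 kb and 926 kb, against 134 kb for the 306 members of the combined list. Read counts do not accompany the lists, which leaves the depth behind a region unknown. The intervals given are exact Clopper-Pearson 95% binomial intervals that cover counting error over regions only.

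The strongest members of III were found at almost the same place in both embryo samples, and all had small peak numbers in each. They were picked by rank in the combined list, which was made from these samples, so their small peak numbers are in part built in. The first of them lay at 3867400 to 3867742, is 343 bp wide, and had peak number 3 among all combined regions. Its counterparts had peak number 6 in replicate 1 and 2 in replicate 2, and their midpoints were 2.5 bp apart. The second, at 8043759 to 8044068, had peak number 14, with 11 in replicate 1 and 17 in replicate 2. The region at 10758962 to 10759314 followed with peak number 15, and 24 and 8 in replicates 1 and 2. These 3 regions are 310 to 353 bp wide, narrower than the width of 490 bp that most combined regions share.

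The region at 7854490 to 7854767 had peak number 16, with 23 in replicate 1 and 13 in replicate 2. That at 5678967 to 5679230 had peak number 28, with 45 and 22. The region at 13643498 to 13643748 had peak number 32, with 34 and 40. Neither sample ranked this upper group ahead of the other throughout. The region at 4899768 to 4900035, with peak number 35 in the combined list, ranked 28 in replicate 1 and 64 in replicate 2. The one at 12904955 to 12905196, with peak number 46, ranked 68 and 34. The tenth member, at 8446978 to 8447222 with peak number 48, ranked 81 and 32, and the ninth, at 13070407 to 13070690 with peak number 47, ranked 38 and 65. For 5 of these 10 members the peak numbers of the samples differed by more than 2 times, with ratios of 1.18 to 3.00 over the 10. Their replicate midpoints lay 2.5 to 17 bp apart. These members are spread from 3867400 to 13643748 rather than gathered in one stretch, and none lies nearer the left end.

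The last members in rank lay further apart in position in the samples. The region at 10620901 to 10621390 was the last, with peak number 1673, and its counterparts ranked 1134 in replicate 1 and 2076 in replicate 2. Before it came 12527816 to 12528305, with peak number 1669 and ranks of 1080 and 2367. The region at 87034 to 87523, near the left end of the chromosome, had peak number 1667 and ranks of 1166 and 1714. All 3 had the smaller peak number in replicate 1, with ratios of 1.47 to 2.19, and their replicate midpoints lay 93 to 121 bp apart. For the member ranked just before them, with peak number 1664, this distance was 60 bp.

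Members of III were found again in both replicate lists with few exceptions. A replicate region was taken as the counterpart of a member where they shared at least 1 bp. Of the 306 members, 305 had a counterpart in replicate 1, where 99.4% of all combined regions had one, and 306 had a counterpart in replicate 2, where 99.7% did. The exception was the region at 11565455 to 11565944, with peak number 1659, which overlapped the replicate 2 region 11565463 to 11565932 (peak number 810) and no region of replicate 1. A counterpart in both samples was present for 99.7% of members (98.2 to 100.0), against 99.1% of the whole combined list. On the other 5 nuclear chromosomes the share was 99.0% (98.3 to 99.4), and the difference did not pass Fisher's exact test (two-sided, adjusted p = 0.53). The combined list was made from these samples, so this share is in part built in. The source field names the irreproducible discovery rate procedure, but how it was used to combine the samples is not given in the sources used here.

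Most members matched a single region in each sample. This was so for 217 of the 306, a count that was not made over the whole list. More than 1 replicate 1 region overlapped 46 members, or 15.0%, where the share among all combined regions was 16.4%. More than 1 replicate 2 region overlapped 60 members, or 19.6%, where the share among all combined regions was 22.5%. The multiple matches of III were thus near the background of the list.

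Ranks in the samples followed each other across the 305 members found in both. Spearman's rho between the replicate 1 and replicate 2 peak numbers was 0.64 and Pearson's r was 0.36. The rho was 0.59 and the r was 0.23 over the 1359 such regions of the other chromosomes. These values describe regions that share the same 2 libraries and of which only those found in both were counted. Members also come from a combined list made from these samples, so the agreement of ranks is in part built in. The peak number was smaller in replicate 1 for 154 of the 305 members, so neither sample ranked them higher on balance. The peak numbers differed by more than 2 times for 102 members, or 33.4%, against 33.8% on the other chromosomes.

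**Figure D1:**
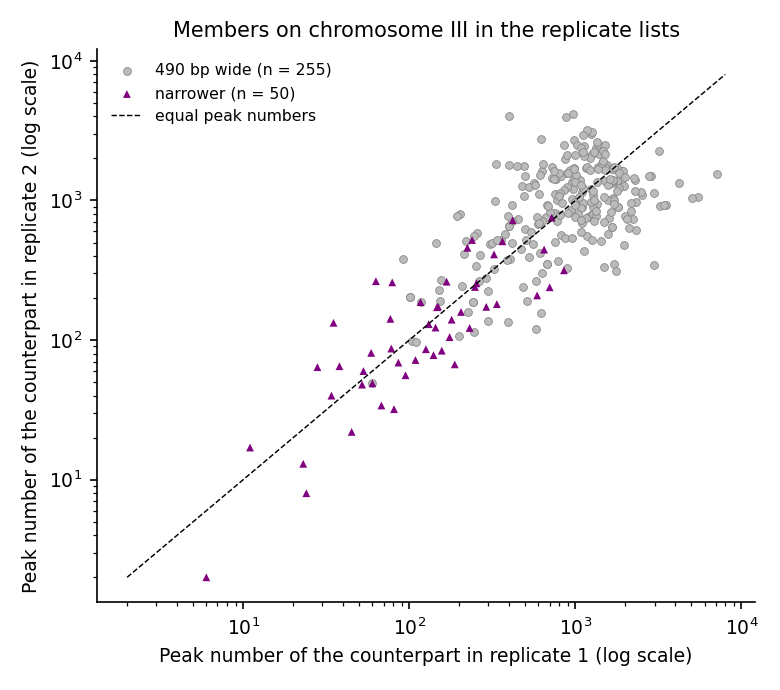
Peak number of the counterpart in replicate 1 (horizontal, log scale) and replicate 2 (vertical, log scale) for the 305 members of chromosome III found in both; triangles are members narrower than 490 bp and circles are members 490 bp wide. Narrow members lie toward the lower left, where both samples give small peak numbers, and the spread about the dashed line of equal peak numbers includes 102 members that differ by more than 2 times.

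A few members stood far apart in the samples. The region at 11290387 to 11290876 ranked 400 in replicate 1 and 4049 in replicate 2, a ratio of 10.1. The region at 13068159 to 13068648 ranked 2992 in replicate 1 and 344 in replicate 2, a ratio of 8.70 the other way. Their combined peak numbers were 871 and 707, near the middle of the list. With 1 library per replicate, no error can be set on a single region's rank.

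Better-ranked members also lay closer together in position. The combined list was divided by peak number into 4 groups of 419 or 420 regions. The distance between replicate midpoints had a median of 14.5 bp for the 82 members in the first group, 23.0 bp for the 71 in the second, 20.0 bp for the 80 in the third and 36.5 bp for the 73 in the fourth. The order was therefore not strict between the second group and the third. Over all pairs the median was 20.0 bp, 155 members were within 20 bp, and 22 were more than 100 bp apart. The largest distance, 390 bp, belonged to an overlapping pair of members that share their counterparts. Paired by nearest midpoint, a choice made after the data were seen, 13 members exceeded 100 bp and the largest distance was 250 bp.

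**Figure D2:**
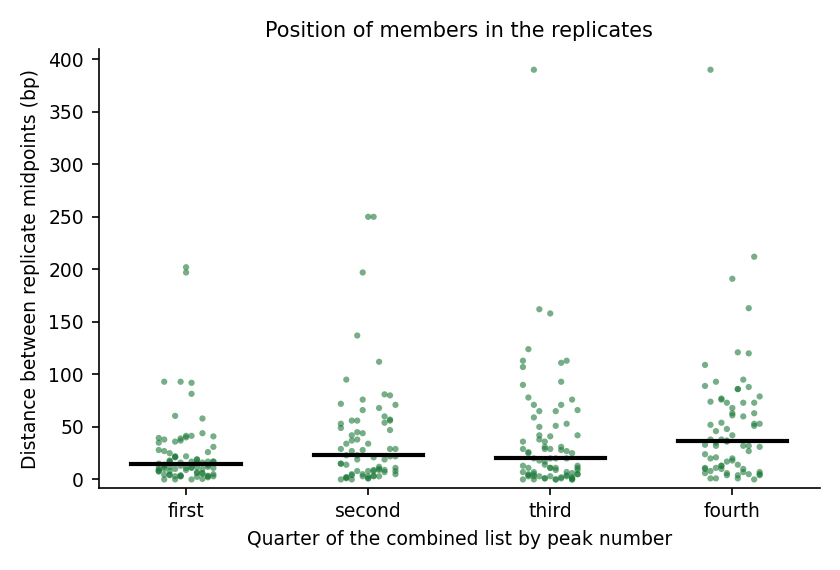
Distance in bp between the midpoints of the replicate 1 and replicate 2 counterparts (vertical) of each member of chromosome III, in 4 groups of the combined list by peak number (horizontal); points are members and black lines are medians of 14.5, 23.0, 20.0 and 36.5 bp. The fourth group has the highest median, and distances over 100 bp occur in each group.

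In width the members fell into a uniform class and a narrow class. The common width of 490 bp was held by 256 members, or 83.7% (79.0 to 87.6), against 87.8% of the whole list and 88.7% (86.9 to 90.3) of the other chromosomes. The difference of -5.05 percentage points gave p = 0.02 before adjustment and did not pass after it (Fisher's exact test, adjusted p = 0.080). Among the better 50% of the list the shares were 67.3% on III and 78.3% elsewhere, a difference of -10.99 points that passed (Fisher's exact test, adjusted p = 0.024). The call thus rested on this choice: the difference was -5.38 points with overlapping regions left out (Fisher's exact test, adjusted p = 0.051) and -14.05 points among the best 25%, an alternative chosen after the data were seen (Fisher's exact test, adjusted p = 0.10), and passed in neither.

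All 50 members of another width were narrower than 490 bp, or 16.3% of the members, where 11.7% of all combined regions were narrower. None was wider, while the widest region elsewhere reached 628 bp. The narrow members had widths of 122 to 353 bp with a median of 205 bp. The narrowest lay at 8800018 to 8800139 and at 3068044 to 3068165, both of 122 bp, with peak numbers 224 and 309. The widest of the narrow class was the member with peak number 15, 10758962 to 10759314, at 353 bp.

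Narrow width went with rank, on III as elsewhere. The narrow members had a median peak number of 111 and none above 709, while members of 490 bp had a median of 991. On the other chromosomes these medians were 118 and 928. Of the 82 members in the first of the 4 groups 45 were narrow, or 54.9%, against 41.7% of all regions in that group. Of the 71 in the second 5 were narrow, and none in the remaining groups. Among the 25 members with a peak number up to 100, 23 were narrow, or 92.0%, against 86.0% of all 100. In the replicate lists, by contrast, 98.6% of the III regions of replicate 1 had a width of 464 bp and 98.5% of those of replicate 2 a width of 470 bp. How the authors set the width is not given in the sources used here.

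As a set the members were ranked much like the rest of the combined list. Their median peak number was 842 and that of the other chromosomes was 839. The better 50% of the list by peak number held 152 members, or 49.7% (43.9 to 55.4), against 50.0% in the whole list and 50.0% (47.4 to 52.7) on the other chromosomes (Fisher's exact test, adjusted p = 0.95). The highest score, 3.35, was shared by 210 members, or 68.6%, where 66.9% of all combined regions share it. The other 96 members scored down to 1.53.

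The members were more numerous than the length of III accounts for. The combined list held 22.2 regions per Mb of III, which was 1.32 times the number its length accounts for (1.19 to 1.47; exact binomial test, adjusted p = 6.3e-07). The excess was present in each sample by itself. In replicate 1, III held 100.5 regions per Mb, at 1.21 times (1.15 to 1.27; exact binomial test, adjusted p = 3.4e-13). In replicate 2 it held 152 per Mb, at 1.20 times (1.15 to 1.25; exact binomial test, adjusted p = 1.5e-17). In both replicate lists III had the highest density of the 6 chromosomes, and chromosome I, with 93.2 and 147 per Mb, came next, while in the combined list chromosome I came first with 23.4 per Mb. Whether III and I differ was not tested, and the binomial tests take each region as an independent event although regions are no replicates.

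Counted in windows of 1 Mb, members were most numerous from 8 to 9 Mb and from 4 to 5 Mb. The window from 8000001 to 9000000 held 41 members and that from 4000001 to 5000000 held 38. The window between 7000001 and 8000000 held 28, and that between 5000001 and 6000000 held 26. The stretch from 6000001 to 7000000 separates these peaks with 12 members, as few as any window of III. Over the 13 windows that the lists cover almost whole, the lowest, median and highest counts were 12, 19 and 41. On V the corresponding counts were 3, 10 and 24, and on I they were 15, 23 and 35, so the highest count on III was above that of both.

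The replicate lists shared this profile in part. Replicate 1 also had its highest count from 8 to 9 Mb, with 136 regions, but only 79 in the window from 7 to 8 Mb, which was its second lowest after 61 from 1 to 2 Mb. Replicate 2 had its highest count from 3 to 4 Mb, with 201 regions, where the combined list held 19. Across the 13 windows the counts of the replicate 1 and replicate 2 lists were correlated with a rho of 0.85 (Spearman) and an r of 0.76 (Pearson). The combined counts had a rho of 0.51 and an r of 0.66 with replicate 1, and a rho of 0.66 and an r of 0.46 with replicate 2, so neither sample was closer by both measures. These are descriptions over windows of the same libraries.

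**Figure D3:**
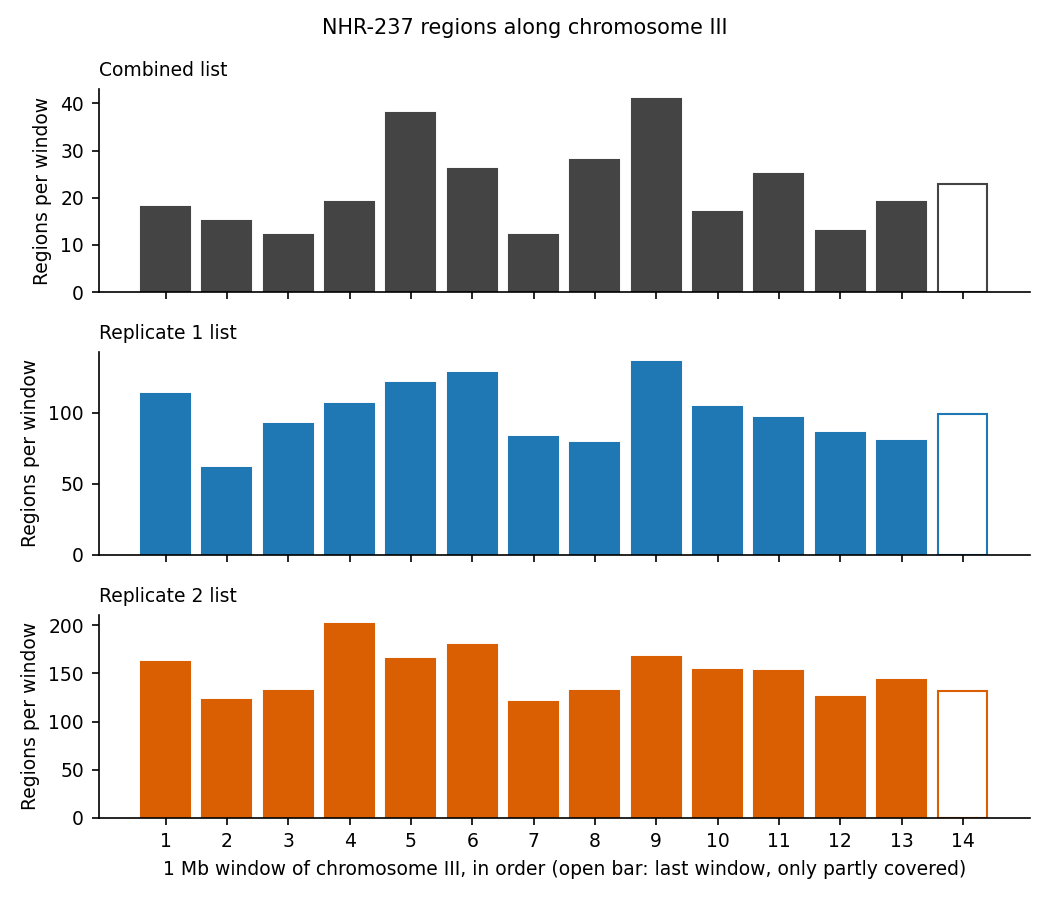
Number of regions per 1 Mb window of chromosome III, in order along the chromosome (horizontal), in the combined list (top), replicate 1 (middle) and replicate 2 (bottom); the open bar is the last window, which the lists cover only in part. The combined list peaks in windows 9 and 5 with 41 and 38 regions, replicate 1 in window 9 with 136, and replicate 2 in window 4 with 201.

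The share of replicate regions that entered the combined list differed between stretches of III. From 7 to 8 Mb, 28 of the 79 replicate 1 regions overlapped a member, or 35.4%, and the shares were 33.8% from 8 to 9 Mb and 33.9% from 4 to 5 Mb. From 6 to 7 Mb the share was 14.5%, from 2 to 3 Mb 15.2%, and over all nuclear chromosomes it was 22.4%. In replicate 2 the same stretches were high and low, with 27.3%, 26.3% and 27.3% in the 3 dense windows, 10.8% from 6 to 7 Mb and 9.09% from 2 to 3 Mb, where the share over all nuclear chromosomes was 15.6%. The dense windows of the combined list were also those where a larger share of the sample regions was kept. Both measures rest on the same members, so this is in part built in. The windows were picked for their counts, and no test was made between them.

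The middle of 3 equal parts of III held 121 members, or 39.5% (34.0 to 45.3), where 40.9% of all autosomal combined regions lay in the middle part of their chromosome. The first part held 89 members and the last 96. The other autosomes had 41.3% (38.4 to 44.3) in the middle part, and III did not differ past the threshold (Fisher's exact test, adjusted p = 0.80). Of all III regions in the longer sample lists, 34.7% in replicate 1 and 31.8% in replicate 2 lay in the middle part. These shares of the whole sample lists were not taken on the other autosomes. Among the best 1679 nuclear regions of each sample, as many as the combined list has, the shares on III were 36.9% in replicate 1 and 40.8% in replicate 2. On the other autosomes these shares were 42.3% and 41.8%, and over all autosomes 41.1% and 41.6%.

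At a finer scale, 2 windows of 100 kb held the most members, 8 each, from 7.1 to 7.2 Mb and from 8.1 to 8.2 Mb. With the windows shifted by 50 kb, 4 held 8 members, starting at 4.15, 4.25, 7.15 and 8.05 Mb, so that the first rank of these 2 stretches depends on where the windows start. The mean over III was 2.22 per window. Of its 138 windows, 46 held 2 members, 31 held 1 and 19 held none, and the windows next in count, from 4.2 and from 8.8 Mb, held 7 each. The highest count was 8 on I and on IV as well, 11 on II, 7 on V and 5 on X, so a window of 8 was not particular to III. Windows without a combined region made up 13.8% of III and 13.9% of I, against 44.3% of V.

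The window from 7.1 to 7.2 Mb held mostly well-ranked regions. Its 8 members spanned 82.7 kb with a median peak number of 217, and 6 of them were in the better 50% of the list. The best was the narrow region at 7179717 to 7179864 (148 bp), with peak number 145, and 149 in replicate 1 and 174 in replicate 2. It was followed by 7155546 to 7156035 with peak number 177, and ranks of 155 and 270. The narrow region at 7162347 to 7162586 had peak number 180 and ranks of 231 and 122. The one at 7153704 to 7154193 had peak number 186 and ranks of 226 and 160, and lay 1352 bp before its neighbour at 7155546.

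The remaining members of that window had larger peak numbers. The other narrow one, at 7189793 to 7189975, had peak number 248 and nearly equal ranks of 254 and 255. The region at 7198781 to 7199270 had peak number 823, with 1095 in replicate 1 and 686 in replicate 2. The region at 7116540 to 7117029 had peak number 933, with ranks of 627 and 1623. The last, at 7166563 to 7167052, had peak number 1468, with ranks of 1659 and 1684, and was the one member of the window below the highest score. Of the sample regions in this window, 8 of 18 in replicate 1 and 10 of 23 in replicate 2 overlapped a member. Over all nuclear chromosomes 22.4% and 15.6% overlapped a combined region. The window was picked for its count of members, so its higher shares are in part built in.

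The window from 8.1 to 8.2 Mb held weaker regions packed more closely. Its 8 members spanned 63.4 kb, their median peak number was 1154, and 3 were in the better 50% of the list. All were 490 bp wide, and 4 were below the highest score. The best, at 8163743 to 8164232, had peak number 169, with 296 in replicate 1 and 138 in replicate 2. The next, at 8130244 to 8130733, had peak number 282 and close ranks of 322 and 325. The region at 8124238 to 8124727 had peak number 808, with 1083 and 877, and its neighbour at 8125238 to 8125727, 510 bp further on, had 1188, with 1515 and 1660.

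A second close pair of the window was 8136445 to 8136934, with peak number 1426, and 8137632 to 8138121, with 1120, separated by 697 bp. The first of these ranked 1258 in replicate 1 and 3117 in replicate 2, and the second 749 and 1417. The region at 8144521 to 8145010 had peak number 1355, with 1129 and 2466. The region at 8100836 to 8101325, with peak number 1622, ranked 3183 and 2271 and was the weakest of the window. Replicate 1 held 14 regions in this window, of which 11 overlapped a member, and replicate 2 held 19, of which 8 did. As this window too was picked for its count of members, these overlaps are in part built in.

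In the sample lists neither window was the densest of III. The window from 7.1 Mb held 18 regions of replicate 1, where 2 windows held more, and 23 of replicate 2. That from 8.1 Mb held 14 and 19, further down the order of both lists. Replicate 1 was densest in the windows from 8.8 and 9.6 Mb, with 19 regions each, and replicate 2 in that from 3.3 Mb, with 31, where the combined list had 2. Windows of 200 kb placed the highest combined count, 12 members, from 4.2 Mb instead.

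Neighbouring members lay a median of 29.4 kb apart, measured from the end of one to the start of the next. The median was 27.1 kb on I and 46.2 kb on V. The longest stretch of III without a member ran from 11870332 to 12151999, or 282 kb, shorter than the longest on any other chromosome (359 kb on I to 892 kb on V). Regions of single samples lay within it, 22 of replicate 1 and 37 of replicate 2. Another 6 stretches exceeded 200 kb, the longest of these from 11317439 to 11565454.

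At the other extreme, 14 members formed 7 overlapping pairs, or 4.58% of members (2.52 to 7.56), where 5.06% of all combined regions overlap another. The share on the other chromosomes was 5.17% (4.06 to 6.48; Fisher's exact test, adjusted p = 0.88). The pair with the smallest peak number lay at 8801926 to 8802166 (peak number 49, narrow) and 8802010 to 8802499 (746). The pair at 10989503 to 10989641 and 10989537 to 10990026 also joined a narrow region to one of 490 bp, with peak numbers 115 and 541. In the pair at 13062287 to 13062776 and 13062487 to 13062976 the peak numbers were 116 and 1248.

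The pair at 4281955 to 4282444 and 4282169 to 4282658 had peak numbers 196 and 1433. In the pairs starting at 5013724 and 5013925 and at 5031213 and 5031425, the peak numbers were close, with 375 and 559 in the first and 520 and 507 in the second. The pair starting at 349364 and 349668 had 1036 and 1593. In 6 of the 7 pairs the midpoints were 200 to 214 bp apart, and in the last they were 304 bp apart. Each member of these pairs overlapped 2 replicate 1 regions, and the members of 4 pairs also overlapped 2 replicate 2 regions. In the other 3 pairs replicate 2 held a single region under both members, so they were separate entries in replicate 1 but not in replicate 2.

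The sample lists overlapped each other slightly more often on III than on the other chromosomes as a group. Of the 1384 replicate 1 regions on III, 865 overlapped a replicate 2 region, or 62.5% (59.9 to 65.1), against 59.1% of all nuclear replicate 1 regions and 58.4% (57.3 to 59.6) of those on the other chromosomes (Fisher's exact test, two-sided, adjusted p = 0.043). Chromosome I had a share close to that of III, with 863 of 1403 regions or 61.5%, and the other 4 had 55.0% to 59.4%, so the overlap was not particular to III. Counted from replicate 2, 912 of 2089 regions on III overlapped replicate 1, or 43.7%, where 40.8% of all nuclear ones did (difference of 3.43 points, Fisher's exact test, adjusted p = 0.030). Among the 4 groups of replicate 1 by rank, the shares on III and elsewhere were 95.4% and 94.4% in the first, 68.3% and 61.5% in the second, 46.9% and 45.6% in the third, and 31.5% and 33.8% in the last. In the first group alone, an alternative chosen after the data were seen, the difference of 1.01 points did not pass (Fisher's exact test, adjusted p = 0.80). Replicate 2 had 152 regions per Mb on III and 99.6 to 147 on the other chromosomes. The part of this density in the overlap was not tested.

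Regions of III entered the combined list at a rate that did not pass a test against the other chromosomes. Of the replicate 1 regions on III, 337 or 24.3% (22.1 to 26.7) overlapped a combined region, against 22.0% (21.1 to 23.0) elsewhere (Fisher's exact test, adjusted p = 0.12). For replicate 2 these were 356 regions or 17.0% (15.5 to 18.7), against 15.3% (14.6 to 16.0) (Fisher's exact test, adjusted p = 0.12). A further 528 replicate 1 regions of III, or 38.2%, overlapped replicate 2 but no combined region, where the share over all nuclear chromosomes was 36.8%. Most replicate regions that overlap a member were among the best ranks of their list: 285 of the 337 in replicate 1 were in the first of its 4 groups, as were 316 of the 356 in replicate 2. This is in part built in, as the combined list was made from these samples. Of all III regions in that first group, 72.3% overlapped a combined region in replicate 1 and 53.5% in replicate 2, against 75.0% and 54.3% on the other chromosomes.

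**Figure D4:**
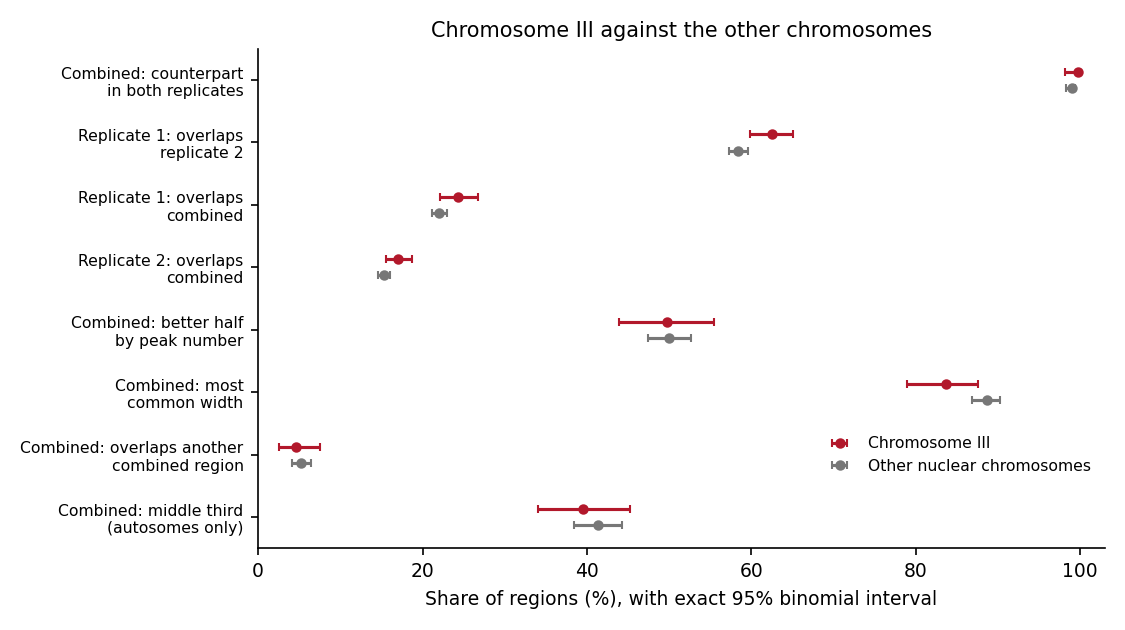
Share of regions in percent (horizontal) for the 8 comparisons of chromosome III (upper point of each row) with the other nuclear chromosomes together (lower point); bars are exact 95% binomial intervals, and the last row compares autosomes only. The overlap of replicate 1 with replicate 2, 62.5% against 58.4%, is the 1 comparison that passed after adjustment over the 8.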

How the data were processed

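ChIP-seq regions from 2 ChIP samples were analysed as deposited. Their build is WormBase WS220, per the file headers, and their source field reads spp_via_IDR, which names SPP and the irreproducible discovery rate procedure. The deposited score has no stated scale, and the peak number stands in the attribute field. For the aligner, tool versions, thresholds, use of the input samples and combining of replicates, nothing further is given in the sources used here.

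Regions were compared with Python 3.11.15 (scipy 1.17.1, pandas 2.3.3, numpy 2.4.6), with figures by matplotlib 3.10.9. Mitochondrial regions were left out. An overlap of at least 1 bp counted as shared, and among several the smallest peak number was the counterpart. Counts per chromosome were set against the length between the first and last base covered by any list (two-sided exact binomial test, Benjamini-Hochberg over 6 chromosomes). Shares on III were set against the other 5 nuclear chromosomes together with two-sided Fisher's exact tests (the middle part against the other autosomes only), Benjamini-Hochberg over 8 comparisons. Windows were assigned by midpoint. The overlap and both tests were checked on simulated data. P-values treat regions as independent and the spread between samples may be technical.

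Members, windows and comparisons were chosen with earlier results of these data known. Regions named are the first 10 and last 3 members by rank, every member of the 2 densest 100 kb windows, members without a counterpart, the narrowest and widest, overlapping pairs and the longest gap. The 2 members with the largest rank ratios and the windows of 1 Mb were picked after their values were seen. The gene table at hand is on another assembly, WBcel235, and no genome sequence was used here, so regions are named by position and no gene or sequence is given.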

Additional observations from a re-analysis of the deposited data

How the results depend on the processing

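Of 44 alternative values for 11 results, 30 led to the same call and direction, or stayed near the main value. The excess of regions on III held at 1.28 to 1.33 times its length after merging or among the better 50% of the list, and was 1.37 without replicate 1 and 1.37 without replicate 2, counted over the best 1679 regions of the remaining sample (1.20 and 1.21 over its whole list). The higher overlap of the replicate lists on III held in 4 alternatives on overlap, rank and direction (3.43 to 7.0 points). It was lost in another 2 that were chosen after the data were seen. The difference was 1.01 points for the best 25% of replicate 1 and 3.64 points for replicate 1 regions outside the combined list. Why the call was lost there was not tested. The lower share of 490 bp regions passed at -10.99 points among the better 50% of the list. Some differences that passed no test changed sign under the alternatives named here, and the cause was not tested: counterparts in both samples became -1.47 points where 50% of both regions had to overlap; rank became 2.25 for the best 25%, 3.02 for the best 10%, 2.13 by score and 1.60 without replicate 1 (-0.64 without replicate 2); overlapping members became 2.09 with midpoints within 1000 bp and 5.55 within 5 kb; and the middle part became 2.10 among the better 50%. The densest window held 8 members per 100 kb, 14 in windows of 50 kb, and, over the whole list of the remaining sample, 31 regions without replicate 1 and 19 without replicate 2, since these lists are longer. The share of sample regions entering the combined list kept its sign throughout. No paired analysis was possible because the input samples, which share the replicate numbers, come with no list used here. Lengths from file headers were not run, as the headers give none. Depth was not measured here.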
